A study of Homo sapiens with 6 samples.

Results

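The genes described here carry out DNA replication or control entry into S phase, and they were followed in REH cells after the ETV6/RUNX1 fusion was silenced. The list holds 44 genes, and a probe of the Agilent catalogue was taken for a gene when the RefSeq accession in its annotation mapped to that gene. This gave 54 probes, of 34134 catalogue probes and 57176 probes in all on the array. All 54 passed the filter on dim probes, which left 29069 probes, and all were well above background on all 6 arrays. Where a gene had more than 1 probe, the probe with the highest mean value stands for it.

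The REH line comes from a human B-cell precursor leukemia, carries the ETV6/RUNX1 fusion and has lost its other ETV6 allele. Cells were given a lentiviral short hairpin RNA (shRNA) and sorted for the green fluorescent protein of the vector, and total RNA was labelled with Cy3 and hybridised to 6 one-color arrays. The control group received a non-targeting shRNA, which according to the study's methods was itself designed on ETV6 but did not hit the fusion, and the knockdown group received an shRNA against the ETV6 part of the fusion. Each group holds 3 arrays, numbered 1 to 3 by the labels, and the study calls them biological triplicates of a single line and a single active hairpin. All values below are normalized intensities on a log2 scale, given for replicates 1, 2 and 3 in that order, and levels of different probes are not compared. In each comparison a probe with a limma adjusted p under 0.05 over all 29069 probes is said to be called.

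Before S phase, the origin recognition complex (ORC) with CDC6 and CDT1 loads the MCM2-7 ring onto DNA, which licenses an origin. At the start of S phase, CDC45 and the GINS complex join the ring and turn it into the active helicase. Polymerase alpha with its primase then starts each strand, the clamp PCNA, loaded by replication factor C (RFC), holds polymerases delta and epsilon on the template, and FEN1 and LIG1 join the Okazaki fragments. Many of these genes are transcribed in late G1 by E2F factors, so their mRNAs are known as markers of proliferating cells. In bulk RNA, fewer cells in S phase and less RNA per cell cannot be told apart.

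The arrays had median raw intensities of 66 to 75, with 42.25 to 48 for the negative control spots, and having 3 arrays in a group limits how precise each value is. Of 10 B-cell precursor markers, 9 were well above background on all 6 arrays and VPREB1 was not, while CD3E and CD3G of T cells and EPCAM and CDH1 of epithelial cells were not well above background on any array. One ETV6 probe was retained, and its log2 difference between knockdown and control was -0.70 (SE 0.14, limma adjusted p = 0.0571). The groups did not overlap on that probe, with control higher. Where the probe lies relative to the fusion point was not analysed here. For RUNX1, the other part of the fusion, 5 probes had log2 differences from -0.26 to 0.03, and none was called (limma adjusted p from 0.520 to 0.946). The study itself reported silencing of the fusion by Western blot and RT-qPCR, shown as representative of 3 biological replicates.

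First, the array values of the 44 genes were compared after each gene was set against its own mean over the 6 arrays. The median deviation was -0.31 on control replicate 1, 0.09 on control replicate 2 and 0.01 on control replicate 3. In knockdown it was -0.17, 0.25 and 0.13. Replicate 1 thus held the lowest median of each group, and the 4 arrays numbered 2 or 3 lay above both replicate 1 arrays.

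**Figure D1:**
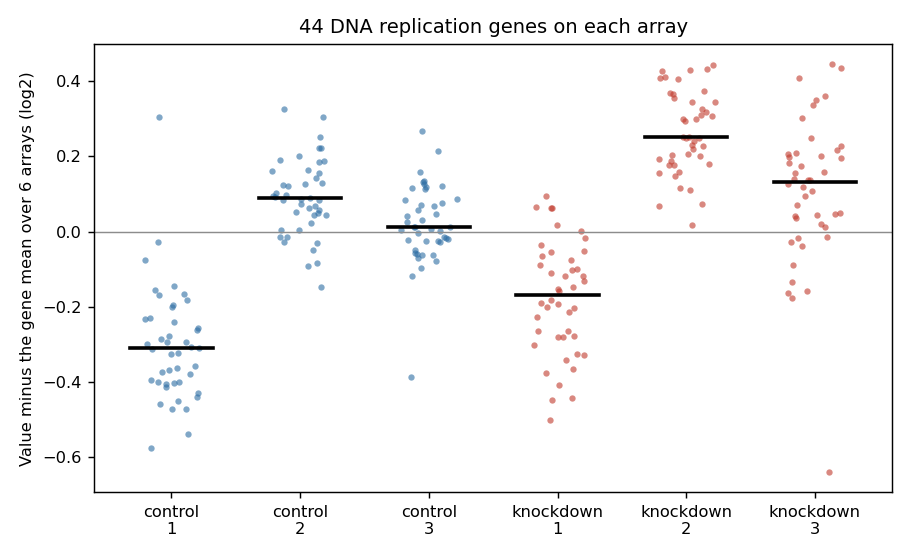
Each point is 1 of the 44 genes on 1 of the 6 arrays, as its log2 value minus the mean of that gene over the 6 arrays (y axis), with control in blue, knockdown in red and a black bar at the median. The bars lie at -0.31 and -0.17 on both replicate 1 arrays and between 0.01 and 0.25 on the other 4.

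Next, fusion knockdown was compared with control. None of the 54 member probes was called, with or without the replicate number as a block, against 1.55% of all probes without it and 3.03% with it. Of all probes, 0.396% were called higher and 1.16% lower (115 and 337 probes), and under spike-in scaling the balance turned, with 476 higher and 172 lower. Unadjusted p was under 0.05 for 4 of 54, both POLE probes and the leading probes of MCM5 and RFC2, against 12.2% of all probes. With the block this was 10 of 54, those 4 and the leading probes of ORC1, GINS1, GINS4, POLA2, LIG1 and E2F2, against 17.9% of all probes. Of the 54 probes, 48 had a difference above 0 (39 of 44 genes), where 49.1% of all probes did. The median over the 44 genes was 0.12 on the log2 scale, against -0.0037 for all retained probes, and the genes ran from -0.32 for POLE to 0.41 for GINS4.

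The within-pair medians were 0.15 for replicate 1, 0.17 for replicate 2 and 0.13 for replicate 3. A gene was higher in knockdown in all 3 pairs in 22 cases (24 probes, against 20.2% of all probes), and lower in all 3 pairs in 1 case, POLE (2 probes, against 21.3%). This lean rested in part on single arrays. With 1 array left out, the log2 difference of 40 of 44 genes moved by more than 1.5 times or changed sign in at least 1 fit, the exceptions being MCM5, CDT1, RFC2 and POLE, and in 22 it changed sign. Without control replicate 1 the median was 0.012 and 28 of 54 probes lay above 0, and without knockdown replicate 2 it was 0.034 with 30 of 54 above 0. With both replicate 1 arrays left out it was 0.13 with 43 of 54 above 0. All 3 knockdown arrays shared a slide row with control replicate 3 only, and with slide row as a term the median was 0.061 with 35 of 54 above 0. Scaling on the spike-in probes moved all probes up, with medians of 0.27 for all probes and 0.39 for the members, and differences here are read relative to the other probes of the array.

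**Figure D2:**
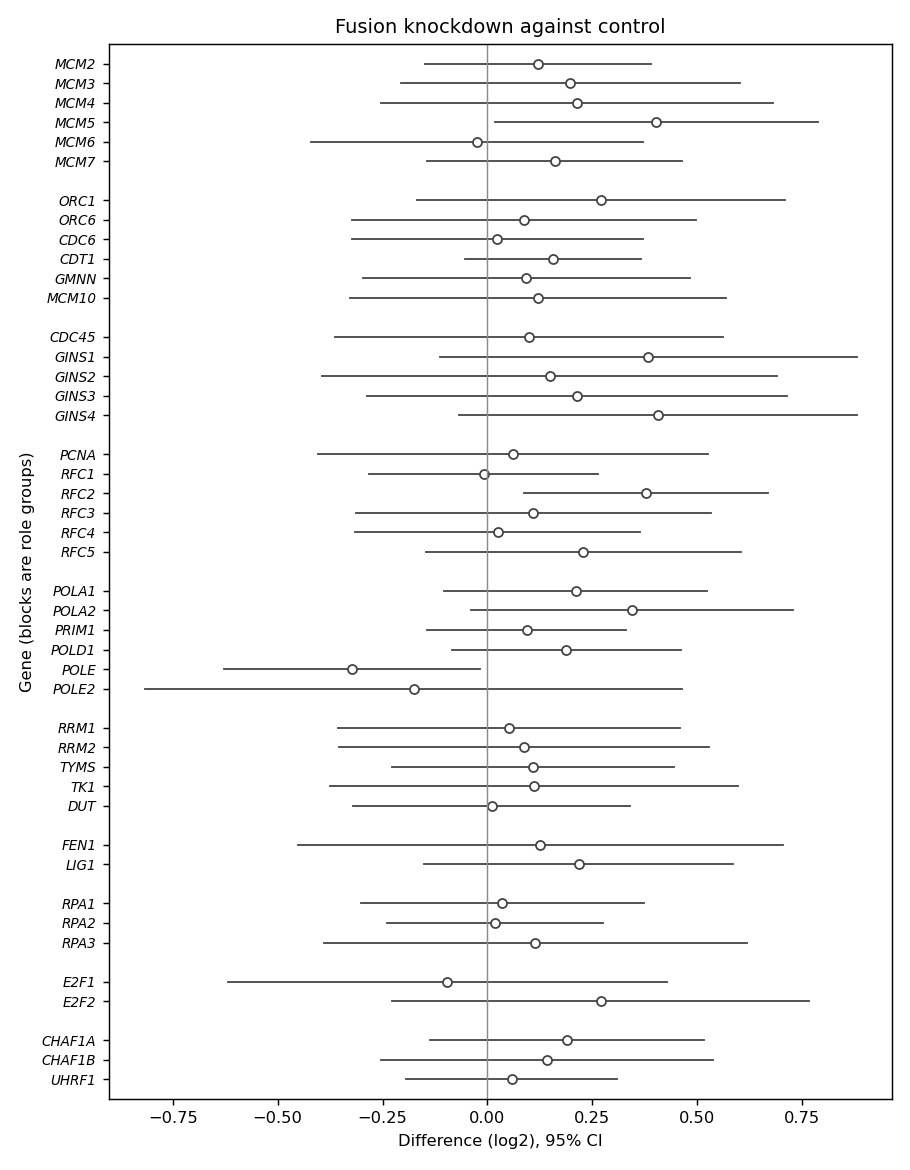
Points are the log2 difference between knockdown and control for each of the 44 genes (y axis, in blocks by role), with 95% confidence intervals. All points are open because none was called, and 39 of 44 lie above 0.

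Among the 6 genes of the MCM2-7 ring, 5 had a difference above 0 and the median was 0.18 on the log2 scale. MCM5, a subunit at the gate of the ring, measured 13.29, 13.59 and 13.16 in control and 13.45, 13.91 and 13.90 in knockdown. Its log2 difference was 0.40 (SE 0.17, limma adjusted p = 0.384), with a 95% interval from 0.02 to 0.79. Control replicate 3 was the lowest array and knockdown replicates 2 and 3 the highest, while knockdown replicate 1 lay among the controls. A second MCM5 probe gave a log2 difference of 0.21 (SE 0.16, limma adjusted p = 0.655). MCM4 had a log2 difference of 0.21, MCM3 of 0.20, MCM7 of 0.16, MCM2 of 0.12 and MCM6 of -0.02. With 1 array left out these ran from 0.046 (without knockdown replicate 2) to 0.41 for MCM4, and, each lowest without control replicate 1, from 0.026 to 0.32 for MCM3, from 0.053 to 0.23 for MCM7, from 0.049 to 0.19 for MCM2 and from -0.17 to 0.11 for MCM6.

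Of the licensing and firing genes, all 6 had a log2 difference above 0, with a median of 0.11. CDT1, which brings the MCM ring to the origin, measured 13.44, 13.43 and 13.44 in control and 13.53, 13.66 and 13.58 in knockdown. Every knockdown array lay above every control array, and the 3 control arrays lay within 0.01 of each other on the log2 scale. Its log2 difference was nevertheless small, 0.16 (SE 0.09, limma adjusted p = 0.545), and the exact permutation test gave p = 0.1 (two-sided), the smallest p that 3 against 3 arrays allow. GMNN, the inhibitor of CDT1, had a log2 difference of 0.09. ORC1, an ATPase subunit of ORC that is made anew each cycle, had 0.27 and ORC6 had 0.09. CDC6 gave 0.02 and MCM10, which acts when the helicase starts, gave 0.12.

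The helicase partners CDC45 and GINS had a median log2 difference of 0.21, with all 5 above 0. GINS4 measured 11.68, 12.24 and 12.24 in control and 12.10, 12.66 and 12.62 in knockdown. Its log2 difference was 0.41 (SE 0.21, limma adjusted p = 0.490), with a 95% interval from -0.07 to 0.88, or from 0.20 to 0.61 with the replicate block (limma adjusted p = 0.0696). It was 0.22 without control replicate 1 and 0.59 without knockdown replicate 1. In each pair the knockdown array was the higher one, but knockdown replicate 1 lay below control replicates 2 and 3. The other GINS subunits had log2 differences of 0.38 for GINS1, 0.15 for GINS2 and 0.21 for GINS3, and CDC45 of 0.10.

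In the clamp and clamp loader group, RFC2 was the only gene whose leading probe did not overlap between groups. RFC2, a small subunit of the clamp loader, measured 11.14, 11.50 and 11.43 in control and 11.61, 11.85 and 11.75 in knockdown. The log2 difference was 0.38 (SE 0.13, limma adjusted p = 0.261), with a 95% interval from 0.09 to 0.67, and the exact permutation test gave p = 0.1. RFC1, the large subunit, had a log2 difference of -0.01, RFC3 of 0.11, RFC4 of 0.02 and RFC5 of 0.23. PCNA had a log2 difference of 0.06 (SE 0.20, limma adjusted p = 0.933). The second RFC3 probe did not overlap either, though its nearest arrays both stood at 8.70, so that 3 of 54 probes lay wholly higher in knockdown, against 8.77% of all probes.

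POLE, the catalytic subunit of polymerase epsilon, was the gene with the lowest difference among the 44. Its leading probe measured 10.24, 10.14 and 9.91 in control and 9.61, 9.96 and 9.76 in knockdown. A second POLE probe measured 8.16, 8.04 and 7.93 in control and 7.47, 7.78 and 7.59 in knockdown. Both probes were lower in knockdown in all 3 pairs, and on the second every control array was above every knockdown array, the 1 probe of 54 with this pattern against 9.83% of all probes. The log2 difference was -0.32 (SE 0.13, limma adjusted p = 0.378) on the first and -0.43 (SE 0.12, limma adjusted p = 0.169) on the second. No other gene of the polymerase group shared this direction except POLE2, its second subunit, at -0.18 (SE 0.28, limma adjusted p = 0.842), where knockdown replicate 3 stood at 10.06 and the other arrays between 10.39 and 11.14. POLA2, the regulatory subunit of polymerase alpha, had a log2 difference of 0.34 (SE 0.17, limma adjusted p = 0.462). POLA1 had 0.21, POLD1 of polymerase delta 0.19 and the primase subunit PRIM1 0.09.

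No gene of the remaining roles was called either. Nucleotide supply genes lay between 0.01 and 0.11 on the log2 scale, namely 0.01 for the dUTPase DUT, 0.05 and 0.09 for the ribonucleotide reductase subunits RRM1 and RRM2, 0.11 for thymidylate synthase TYMS and 0.11 for thymidine kinase TK1. TYMS, with the lowest p among them, measured 15.61, 15.94 and 15.82 in control and 15.63, 16.02 and 16.04 in knockdown, and the groups overlapped. LIG1, the ligase of the lagging strand, measured 12.23, 12.72 and 12.49 in control and 12.47, 12.90 and 12.73 in knockdown. Its log2 difference was 0.22 (SE 0.16, limma adjusted p = 0.646), and that of the flap nuclease FEN1 was 0.13. The single-strand binding subunits had log2 differences of 0.04 for RPA1, 0.02 for RPA2 and 0.11 for RPA3. E2F1 had a log2 difference of -0.10 and E2F2 of 0.27, which are both activators of S phase transcription. CHAF1A, of the complex that places histones on new DNA, measured 13.24, 13.64 and 13.48 in control and 13.44, 13.73 and 13.77 in knockdown, and its log2 difference was 0.19 (SE 0.14, limma adjusted p = 0.651). CHAF1B of the same complex had 0.14, and UHRF1, which brings the maintenance methylase to new DNA, had 0.06.

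Replicate 1 of both groups was then compared with replicates 2 and 3, that is 2 arrays against 4, with the group as a term in the fit. The fit treats these arrays as independent, but same-numbered arrays deviated together (r = 0.40 for replicate 1). The p-values of this fit therefore measure only the spread between these arrays. Here 16 of 54 member probes (29.6%) were called, all lower in replicate 1, where 1.6% of all probes were called lower, 3.06% higher and 4.66% in either direction. They stand for 15 of 44 genes, namely MCM3, MCM4, MCM6, ORC1, ORC6, GINS1, GINS2, GINS3, GINS4, PCNA, RRM1, TK1, FEN1, E2F1 and E2F2. At an unadjusted p under 0.05 there were 35 of 54, all lower, against 9.91% of all probes lower and 23% in either direction. The difference was below 0 in 44 of 44 genes and in 53 of 54 probes, where 49% of all probes lay below 0. The median over genes was -0.36 on the log2 scale, against 0.0046 for all retained probes, and it was -0.37 within control and -0.36 within knockdown.

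Replicate 1 was the lowest array of both groups in 32 of 44 genes (37 probes), against 20.1% of all probes. In 29 of 44 genes (34 probes) both replicate 1 arrays lay below all 4 others, where 13.4% of all probes did. The calls depended on all 6 arrays being in the fit. With 1 array left out, at most 4 probes were called. The 4 were called without control replicate 3, 3 without knockdown replicate 3 and 1 without control replicate 1, and there were 0 when control replicate 2 or either of knockdown replicates 1 and 2 was left out. The count was also 0 with no filter on dim probes, with the scanner software's processed signal, or without the group term, 2 under spike-in scaling, and 27 or 28 under other settings given in the closing section. Of all 1354 probes called, 890 were higher and 464 lower, and the split was 1152 and 1078 with normexp and quantile normalization and 152 and 131 with the processed signal. The direction held more widely. Between 48 and 54 of 54 probes lay below 0 in each of the fits with 1 array left out, and the median probe ran from -0.38 to -0.32. In these fits 15 of 44 genes had a log2 difference that moved by more than 1.5 times or changed sign, none of them a called gene, and in 6 it changed sign. The culture, extraction or labelling batch behind a replicate number was not given in the sources used here, all 6 arrays came from 1 slide, and control replicates 1 and 2 shared a slide row. With slide row as a term, 4 of 54 probes were called and the median probe was -0.37.

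**Figure D3:**
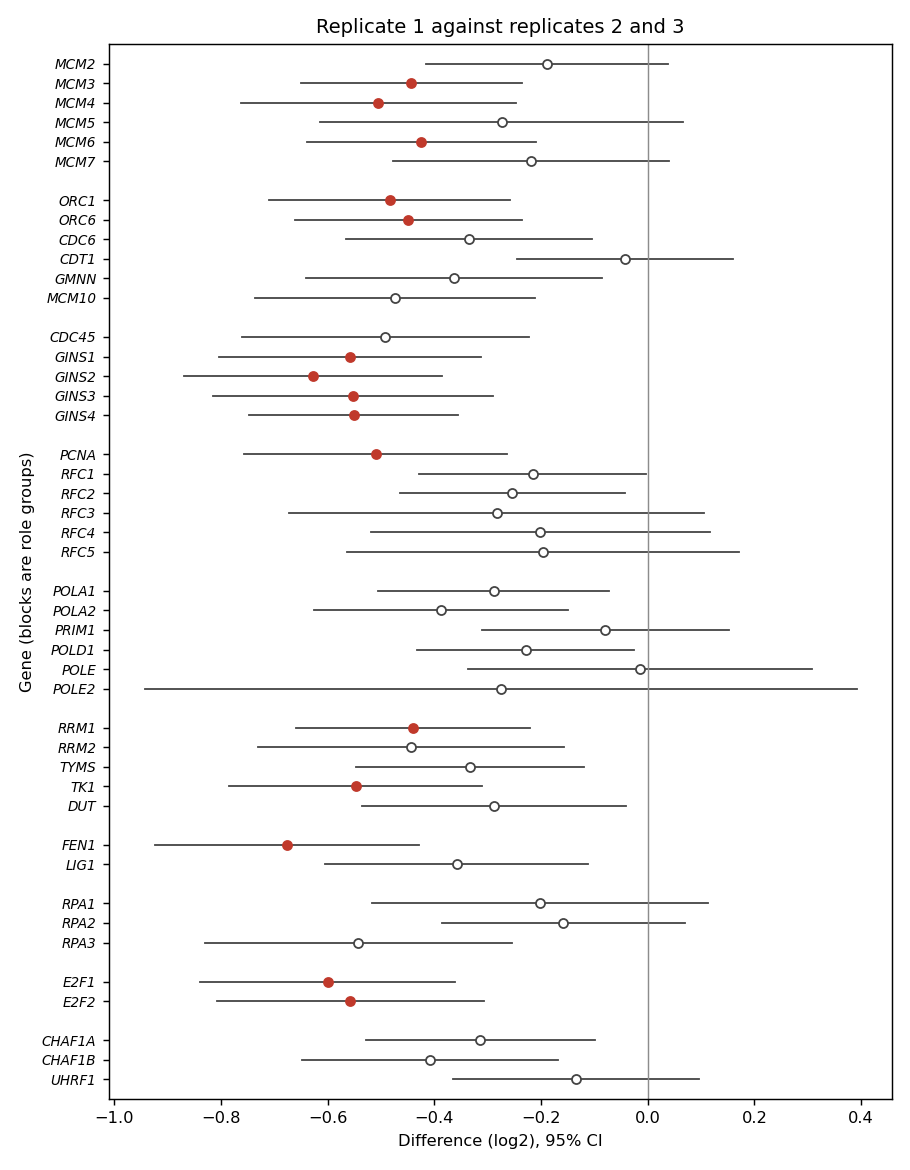
Points are the log2 difference between replicate 1 and replicates 2 and 3 for each of the 44 genes (y axis, in blocks by role), with 95% confidence intervals, and filled points are the 15 called genes. All 44 points lie below 0, from -0.68 for FEN1 to -0.02 for POLE.

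CDC45 and the GINS complex had the lowest median of the role groups with at least 3 genes, -0.55 on the log2 scale, and 4 of 5 genes were called. GINS2 measured 12.96, 13.64 and 13.43 in control and 13.04, 13.79 and 13.64 in knockdown. Its log2 difference was -0.63 (SE 0.10, limma adjusted p = 0.0238), which is 1.54-fold lower in replicate 1. GINS4 fell by a similar amount, with a log2 difference of -0.55 (SE 0.08, limma adjusted p = 0.0197). GINS1 measured 11.86, 12.25 and 12.51 in control and 12.19, 12.74 and 12.83 in knockdown, and its log2 difference was -0.56 (SE 0.10, limma adjusted p = 0.0343). GINS3 measured 12.76, 13.14 and 13.18 in control and 12.77, 13.37 and 13.58 in knockdown, and its log2 difference was -0.55 (SE 0.11, limma adjusted p = 0.0412). In all 4, both replicate 1 arrays lay below the other 4 arrays. CDC45 was not called, at -0.49 (SE 0.11, limma adjusted p = 0.0591), although its replicate 1 arrays were also the lowest 2 of 6.

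Among the MCM2-7 genes, 3 of 6 were called. MCM3 measured 14.42, 14.95 and 14.92 in control and 14.71, 15.11 and 15.05 in knockdown, and its log2 difference was -0.44 (SE 0.09, limma adjusted p = 0.0388). MCM4 measured 11.77, 12.24 and 12.17 in control and 11.89, 12.61 and 12.32 in knockdown, and its log2 difference was -0.51 (SE 0.11, limma adjusted p = 0.0490). MCM6 measured 13.78, 14.26 and 14.20 in control and 13.79, 14.27 and 14.11 in knockdown, and its log2 difference was -0.42 (SE 0.09, limma adjusted p = 0.0478). Both replicate 1 arrays were below the other 4 in each of these genes. The others had log2 differences of -0.19 for MCM2, -0.27 for MCM5 and -0.22 for MCM7. With 1 array left out, MCM5 ran from -0.46 to -0.091 and MCM7 from -0.32 to -0.12.

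Of the origin genes, ORC1 and ORC6 were called. ORC1 measured 9.62, 10.03 and 9.95 in control and 9.74, 10.37 and 10.31 in knockdown, and its log2 difference was -0.48 (SE 0.10, limma adjusted p = 0.0389). ORC6 measured 11.39, 11.94 and 11.93 in control and 11.60, 11.97 and 11.93 in knockdown, and its log2 difference was -0.45 (SE 0.09, limma adjusted p = 0.0405). Again both replicate 1 arrays were the lowest. MCM10 had a log2 difference of -0.47 (SE 0.11, limma adjusted p = 0.0614), GMNN of -0.36 and CDC6 of -0.34. With 1 array left out, CDC6 ran from -0.47 to -0.20. CDT1 stood apart from its group with -0.04 (SE 0.09, limma adjusted p = 0.808) and a 95% interval from -0.25 to 0.16.

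PCNA was called on both of its probes. The first measured 14.08, 14.66 and 14.65 in control and 14.23, 14.80 and 14.54 in knockdown, and its log2 difference was -0.51 (SE 0.10, limma adjusted p = 0.0422). The second had a log2 difference of -0.57 (SE 0.10, limma adjusted p = 0.0271). Replicate 1 was the lowest array of both groups on each probe. The log2 differences of the 5 RFC genes that load this clamp ran from -0.28 for RFC3 to -0.20 for RFC5. With 1 array left out, RFC4 ran from -0.30 to -0.11 and RFC5 from -0.33 to -0.075. None of the 5 was called. Nor was any of the 6 polymerase and primase genes called. POLA2, with the lowest p among them, measured 9.84, 10.24 and 10.21 in control and 10.18, 10.70 and 10.44 in knockdown, and its log2 difference was -0.39 (SE 0.10, limma adjusted p = 0.0797). POLE had a log2 difference of -0.02 (SE 0.14, limma adjusted p = 0.962) and PRIM1 of -0.08 (SE 0.10, limma adjusted p = 0.676).

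FEN1 had the lowest log2 difference of the 44 genes. It measured 11.41, 12.05 and 11.94 in control and 11.42, 12.29 and 12.08 in knockdown. Both replicate 1 arrays stood near 11.4 and the other 4 at 11.94 or above, so that the groups of arrays did not overlap. The log2 difference was -0.68 (SE 0.11, limma adjusted p = 0.0211), or 1.60-fold lower in replicate 1. LIG1, its partner in fragment joining, had a log2 difference of -0.36 (SE 0.11, limma adjusted p = 0.103). FEN1, GINS2 and GINS4 were the members called most often under other settings, each in 10 of 18, whereas MCM4 was called in 4 of 18.

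Of the nucleotide supply genes, RRM1 and TK1 were called. RRM1 measured 13.60, 13.91 and 13.98 in control and 13.53, 14.10 and 14.01 in knockdown, and its log2 difference was -0.44 (SE 0.09, limma adjusted p = 0.0462). TK1 measured 15.52, 15.93 and 15.91 in control and 15.43, 16.17 and 16.09 in knockdown, and its log2 difference was -0.55 (SE 0.10, limma adjusted p = 0.0326). Both replicate 1 arrays were below the other 4 in each. RRM2 had a log2 difference of -0.44 (SE 0.12, limma adjusted p = 0.0899), TYMS of -0.33 and DUT of -0.29. With 1 array left out, RRM2 ran from -0.64 to -0.25. RPA3, the smallest subunit of the single-strand binding complex, measured 13.71, 14.06 and 14.03 in control and 13.55, 14.20 and 14.40 in knockdown. It was just outside the threshold, with a log2 difference of -0.54 (SE 0.12, limma adjusted p = 0.0544), against -0.20 for RPA1 and -0.16 for RPA2. With 1 array left out these ran from -0.75 to -0.33 for RPA3, from -0.32 to -0.080 for RPA1 and from -0.28 to -0.038 for RPA2. A second RPA1 probe was the 1 of 54 with a difference above 0, at 0.02.

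E2F1 and E2F2 were both called. E2F1 measured 11.61, 12.24 and 12.03 in control and 11.41, 12.13 and 12.05 in knockdown, and its log2 difference was -0.60 (SE 0.10, limma adjusted p = 0.0262). E2F2 measured 13.74, 14.19 and 14.08 in control and 13.79, 14.55 and 14.47 in knockdown, and its log2 difference was -0.56 (SE 0.11, limma adjusted p = 0.0353). In both, the replicate 1 arrays were the lowest 2 of 6. E2F3, a further E2F activator that is not among the 44 genes, was not called, with a log2 difference of -0.10 (SE 0.10, limma adjusted p = 0.615). The chromatin genes were not called. CHAF1B measured 12.78, 13.30 and 13.14 in control and 12.96, 13.44 and 13.24 in knockdown, with a log2 difference of -0.41 (SE 0.10, limma adjusted p = 0.0711), while CHAF1A had -0.31 and UHRF1 -0.13.

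**Figure D4:**
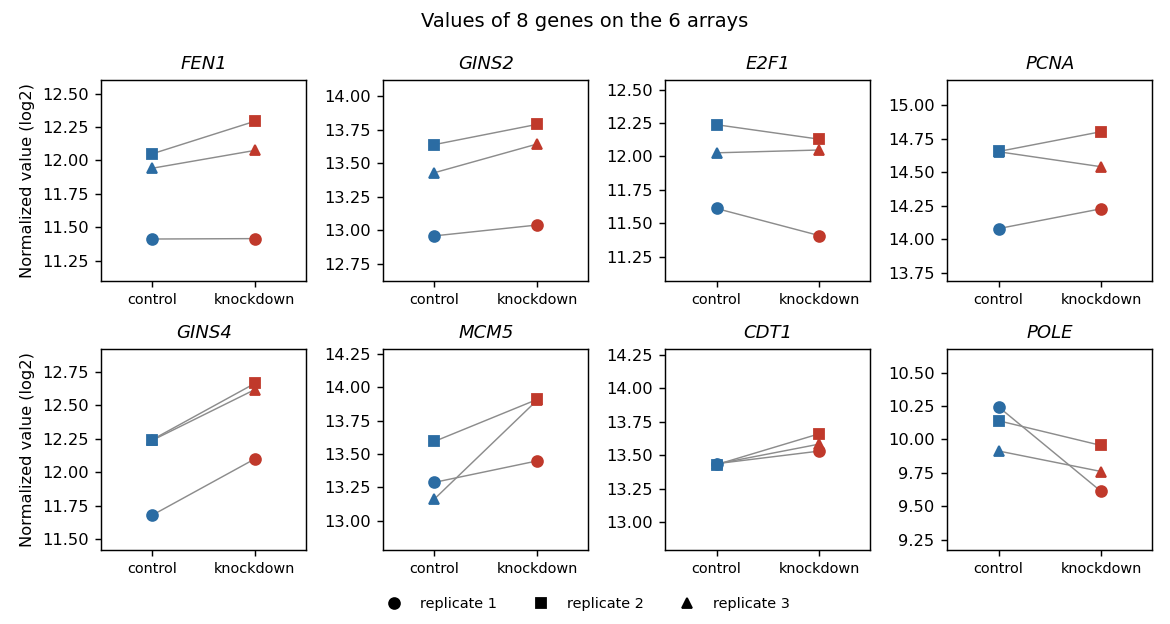
Log2 values of 8 of the genes in control (blue) and knockdown (red), with the replicate number as the symbol, a line joining arrays of the same number, and the same height of axis in each panel. In FEN1, GINS2, E2F1, PCNA and GINS4 both circles (replicate 1) lie below all other symbols, in CDT1 all red symbols lie above all blue ones, and in POLE each line descends.

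It was then tested whether the change after knockdown differed between replicate 1 and the other replicates. For this interaction 0 of 54 member probes were called by limma, against 0.434% of all probes, and 2 of 54 had an unadjusted p under 0.05, against 8.12%. These were the leading probe of RFC3 and the second probe of UHRF1.

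**Figure D5:**
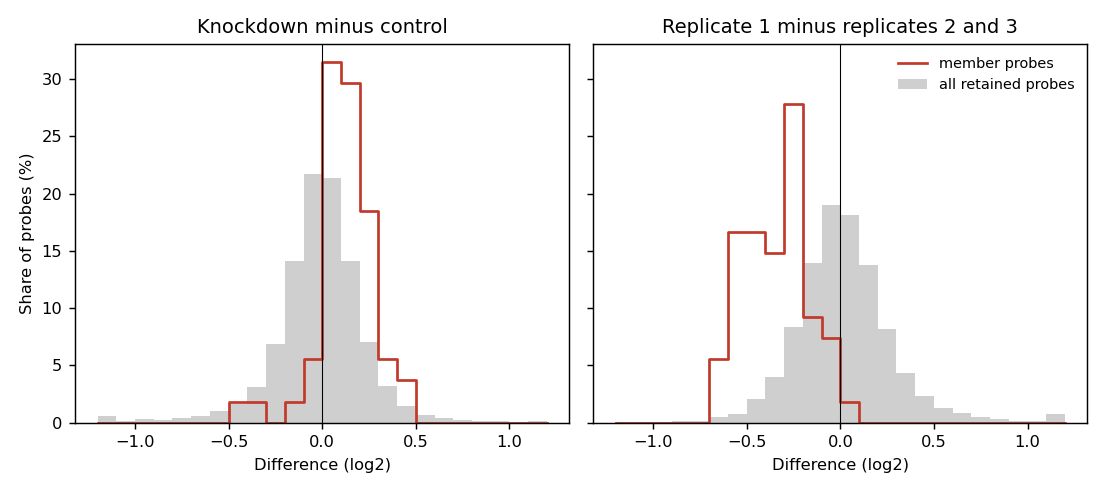
Share of probes (y axis, %) in steps of 0.1 of the log2 difference (x axis) for all 29069 retained probes (grey) and the 54 member probes (red), with values beyond the axis counted in the outermost step. Between knockdown and control most member probes lie just above 0, with none called, and between replicate 1 and the others 53 of 54 lie below 0.

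The promoters of the members were then read for the E2F element, since many genes of this pathway are known E2F targets. RefSeq promoter windows of GRCh38.p14, from 250 bases before to 50 bases after the start, were matched by symbol for 39 of 44 members, and not for GINS4, MCM4, MCM5, RPA2 and RPA3. The octamers TTTGGCGC, TTTCCCGC, TTTGCCGC and TTTCGCGC were searched on both strands. TTTGGCGC and TTTCGCGC on opposite strands can overlap in TTTGGCGCGAAA, as they do in MCM6. At least 1 octamer was found in 20 of 39 members (51.3%), in 908 of 27305 promoters in all (3.33%) and in 585 of 11153 promoters of genes with a retained mRNA probe (5.25%). The CCAAT box, spelled CCAAT on either strand, was found in 22 of 39 members (56.4%) and in 35.7% of all promoters.

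Members with an octamer were found both among those called in replicate 1 and among the rest. It was present in 8 of 13 called members and in 12 of 26 others, and the median log2 difference of replicate 1 was -0.35 over the 20 genes with a match and -0.36 over the 19 without. FEN1, TK1, ORC1, ORC6 and RRM1 were called and had no match, whereas CDT1, POLE and UHRF1 had a match and differed little. A match is a description of the sequence and not a sign of binding.

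A set of 5 called members with an octamer upstream is shown, as the 120 bases that end just before the start, read 5′ to 3′ along the strand of the gene, with the octamers in capitals. All 5 genes lie on the minus strand. The windows are chr16:85688955-85689074 for GINS2, chr20:33686386-33686505 for E2F1, chr1:23531234-23531353 for E2F2, chr20:5126623-5126742 for PCNA and chr2:135876444-135876563 for MCM6.
GINS2: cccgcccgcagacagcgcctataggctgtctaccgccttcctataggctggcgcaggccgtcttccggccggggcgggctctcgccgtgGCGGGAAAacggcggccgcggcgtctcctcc
E2F1: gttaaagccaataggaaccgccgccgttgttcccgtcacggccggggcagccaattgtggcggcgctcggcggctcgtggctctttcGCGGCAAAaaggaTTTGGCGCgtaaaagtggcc
E2F2: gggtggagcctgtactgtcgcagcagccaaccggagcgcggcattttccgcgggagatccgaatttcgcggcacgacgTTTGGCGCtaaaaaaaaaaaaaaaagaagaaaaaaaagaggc
PCNA: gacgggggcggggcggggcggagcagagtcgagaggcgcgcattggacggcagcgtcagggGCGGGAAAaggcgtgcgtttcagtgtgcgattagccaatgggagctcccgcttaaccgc
MCM6: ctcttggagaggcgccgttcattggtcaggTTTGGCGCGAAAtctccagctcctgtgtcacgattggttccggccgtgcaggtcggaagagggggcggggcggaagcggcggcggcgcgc
E2F1 held an octamer of each strand, with first bases at -33 and -20 from its start, and its own mRNA was lower in replicate 1 by the value given above. In GINS2, E2F2 and PCNA the single octamer of the window began at -31, -42 and -59. The MCM6 window held overlapping octamers that began at -90 and -86.

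Genes of the same pathway outside the 44 were described next. The 47 other replication genes all had a retained probe. After knockdown 0 of 47 were called, against 1.55% of all probes, and their median log2 difference was 0.08 with 38 above 0, against 49.1%. The lowest p values belonged to ORC5, an ORC subunit, at 0.26 (SE 0.09, limma adjusted p = 0.289), to TICRR, which is needed to load CDC45, at 0.36 (SE 0.16, limma adjusted p = 0.409), and to the histone chaperone ASF1B at 0.52 (SE 0.23, limma adjusted p = 0.424). In replicate 1, 8 of 47 were called, all lower, against 1.6% of all probes, and the median was -0.31 with 43 of 47 below 0, against 49% of all probes. WDHD1, which ties polymerase alpha to the helicase, measured 11.09, 11.66 and 11.56 in control and 10.91, 11.65 and 11.59 in knockdown, and its log2 difference was -0.61 (SE 0.09, limma adjusted p = 0.0206). Both replicate 1 arrays were the lowest of the 6. TIPIN, of the complex that steadies the fork, had a log2 difference of -0.50 (SE 0.09, limma adjusted p = 0.0333), and CDC7, the kinase that fires origins, of -0.63 (SE 0.11, limma adjusted p = 0.0288). The other called genes were ASF1B, ATAD5, CTPS1, POLD3 and RNASEH2B, with log2 differences between -0.68 for ATAD5 and -0.42 for POLD3.

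Among 24 regulators of the step from G1 to S, 6 were called lower in replicate 1, namely CCNA2, CCNE1, CCNE2, CDK2, E2F7 and E2F8, and 2 were called higher, CCND2 and CDKN1A, where 1.6% of all probes were called lower and 3.06% higher. CCNE2, a cyclin E gene, measured 9.57, 10.56 and 10.43 in control and 9.84, 10.64 and 10.47 in knockdown, and its log2 difference was -0.82 (SE 0.10, limma adjusted p = 0.0115). CDKN1A, the inhibitor p21 of cyclin-dependent kinases, measured 8.72, 7.96 and 7.92 in control and 8.56, 7.97 and 7.74 in knockdown, and its log2 difference was 0.74 (SE 0.10, limma adjusted p = 0.0133). In both genes the replicate 1 arrays stood apart from the other 4. After knockdown 1 of 24 was called, against 1.55% of all probes, namely the cyclin D2 gene CCND2. It measured 10.05, 9.32 and 8.95 in control and 7.93, 6.70 and 6.70 in knockdown, so that all knockdown arrays lay below all control arrays, and its log2 difference was -2.33 (SE 0.38, limma adjusted p = 0.0287). Of 20 mitosis genes with a retained probe, 0 were called after knockdown and 2, BUB1 and CDK1, were called lower in replicate 1, where 20 of 20 lay below 0 with a median of -0.27. Of all probes, 1.55% were called after knockdown, while 1.6% were called lower and 49% lay below 0 in replicate 1.

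Genes of the amino acid stress response, a list taken up because earlier results of these arrays showed such genes higher in replicate 1, moved with the same arrays. Of 16, 15 were called higher in replicate 1, against 3.06% of all probes, with a median log2 difference of 1.45. Because the list was chosen on these arrays, that count and the p-value below describe the choice and test nothing. After knockdown 0 of 16 were called without the block, against 1.55% of all probes. With the block 1 was called, TRIB3, against 3.03%. ASNS, the asparagine synthetase, measured 14.67, 12.45 and 12.33 in control and 14.42, 12.58 and 12.42 in knockdown. Its log2 difference in replicate 1 was 2.10 (SE 0.12, limma adjusted p = 0.000538). TRIB3, a pseudokinase induced by ATF4, measured 15.36, 12.23 and 12.51 in control and 16.41, 13.32 and 13.66 in knockdown. Both replicate 1 arrays lay above the other 4 for each gene. The part of this response in the lower values of the replication genes was not tested.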

How the data were processed

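Expression was measured on 6 custom one-color Agilent arrays. The authors extracted the intensity of each spot with Feature Extraction 10.7.1.1, per the file headers, and these values were deposited without normalization between arrays. Flags for outliers and signal well above background are other values of the deposited files. The authors also deposited normalized log2 values, which on each array were an inverse hyperbolic sine of the spot median minus its local background.

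The variance stabilizing (VSN) model was written anew, fitted with the 0.9 quantile of least squares kept, and run on the raw median intensity. Flagged spots were left out and spots of a probe averaged. A probe was kept when its value passed 1.1 times the 0.95 quantile of 308 negative control spots on at least 60% of a group's arrays, that is 2 of 3. Comparisons used limma 3.58.1 with R 4.3.3 (lmFit, eBayes, two-sided) and no block, with Benjamini-Hochberg adjustment over all 29069 retained probes. Same-numbered arrays deviated together (r = 0.40, 0.26 and 0.19 across probes), which meets the rule used for pairing (every r over 0.1), though the mismatched arrays numbered 2 and 3 gave r = 0.15 and 0.18. The rule thus cannot show that numbers 2 and 3 pair, and a pair here means only arrays of the same number. Blocked values are given where they move a count by over 1.5 times. Named genes are all 44 members, and array values are given for those called and for the lowest p in each role. RefSeq accessions gave 25728 of 34134 catalogue probes a symbol. A gene of the list of other replication genes is not reported here. The members, the lists and the comparison of replicate 1 were chosen with earlier results of these data known. Normalization and fits were run on simulated data with known changes. For knockdown, true log2 changes of -0.5 and 0.5 were called in 21.4% and 36.7% of probes. For replicate 1 this was 0% and 4.55%. Changes of -1 and 1 were called in 85.4% and 88% for knockdown, and in 51.3% and 48.9% for replicate 1. In all, 117 and 44 simulated probes were called, fewer than in the data. A member that was not called is thus not shown to be unchanged. In the comparison of 2 against 4 arrays, p-values measure only the spread between these arrays. Alternatives were other normalizations (normexp with an offset of 50 and quantile, processed signal, spike-in, deposited values, background-subtracted), filters, priors, probe averages, slide row, the replicate block and leaving out arrays.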

Additional observations from a re-analysis of the deposited data

How the results depend on the processing

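All 20 alternatives were run, 3 of them (the filter threshold on the raw intensity scale, background-subtracted input and both replicate 1 arrays left out) added with the data in view. After knockdown no member probe was called in any of 19 alternatives. The median member probe moved to 0.39 under spike-in scaling, where the median of all probes was 0.27. It was 0.061 with slide row as a term and ran from 0.012 to 0.24 with 1 array left out. The 452 probes called in all became 224 with no filter, 245 with slide row as a term and 881 with the replicate block, and 177 to 479 with 1 array left out. The replicate block changed no member call in this comparison, and 588 of its 881 probes were lower.

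In replicate 1, the 16 called members became 27 with normexp and quantile normalization, 28 with an intensity trend and robust prior, 7 with the raw-scale threshold, 4 with slide row, 2 with spike-in scaling, and 0 with the processed signal at the 75th percentile, with no filter or without the group term. With 1 array left out they were 0 to 4. The 1354 probes called in all became 2230, 2513, 896, 613, 615, 283, 141 and 266 in these settings in the same order, and 287 to 617 with 1 array left out. The median member probe moved to -0.45 under spike-in scaling, where that of all probes was -0.11. It stayed below 0 in all 18 alternatives. Among values of single genes in replicate 1, 164 were no longer past the threshold and 17 passed it newly. With no filter, more probes enter the adjustment, and with 1 array left out fewer arrays enter the fit. The cause of the other changes was not tested.

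Some uncalled values of single genes changed sign. After knockdown these were 0.25 for MCM6, 0.27 for RFC1, 0.097 for POLE2 and 0.18 for E2F1 under spike-in scaling, which adds the same 0.27 to the difference of every gene, so that these 4 changes of sign are fixed by that shift and say nothing about the genes. They were 0.050 for RFC1 with the processed signal and 4.9e-05 for RFC1 with the deposited values. With slide row as a term they were -0.092 for ORC6, -0.013 for CDC6, -0.061 for MCM10, -0.13 for PCNA, -0.033 for RFC3, -0.10 for RRM1, -0.17 for RRM2, -0.012 for TK1, -0.014 for FEN1, -0.10 for RPA1 and -0.061 for RPA2. With both replicate 1 arrays left out they were -0.12 for RFC3, -0.045 for RRM2, -0.045 for RPA1 and -0.062 for RPA2. With 1 array left out, the log2 difference after knockdown ran from -0.095 to 0.20 for ORC6, -0.062 to 0.18 for CDC6, -0.057 to 0.21 for GMNN, -0.051 to 0.26 for MCM10, -0.065 to 0.26 for CDC45, -0.044 to 0.37 for GINS2, -0.13 to 0.21 for PCNA, -0.10 to 0.25 for RFC3, -0.12 to 0.11 for RFC4, -0.065 to 0.23 for RRM1 and -0.13 to 0.22 for RRM2. It also ran from -0.025 to 0.34 for TK1, -0.089 to 0.11 for DUT, -0.068 to 0.38 for FEN1, -0.081 to 0.13 for RPA1, -0.075 to 0.072 for RPA2, -0.0046 to 0.27 for CHAF1B, -0.17 to 0.11 for MCM6, -0.089 to 0.071 for RFC1, -0.27 to 0.13 for E2F1, -0.44 to 0.10 for POLE2 and -0.061 to 0.36 for RPA3. In replicate 1 it ran from -0.63 to 0.061 for RFC3, -0.18 to 0.023 for PRIM1, -0.60 to 0.048 for POLE2, -0.25 to 0.22 for POLE, -0.090 to 0.0038 for CDT1 and -0.27 to 0.0017 for UHRF1. The cause of the changes other than those under spike-in scaling was not tested.

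All member probes were well above background on every array.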
